A study of Mus musculus with 7 samples.

Results

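The genes described here make fatty acids and triglycerides in the liver, 32 in all, given as a list of names. Of these, 31 had at least 1 probe among the 19038 genes named on the array, with 53 probes between them out of 45281, and the expression of G6pdx, which encodes the enzyme that opens the pentose phosphate pathway, was not analysed here. Each gene is described at its brightest probe, the one with the highest mean intensity over the 7 arrays. The livers came from male C57BL/6J mice at postnatal day 28. In 3 of them, called ethanol livers, the dam had free access to 10% (v/v) ethanol between fertilization and gestational day 8.5, and 4 were controls. The treatment text is the same on all 7 samples, so each group rests on the sample's title, and what the control dams drank is not given in the sources used here. The labels name no litters, so the p-values cover only how these 7 samples scatter, which may be in part technical. The study is titled as one of postnatal growth in mice exposed as in fetal alcohol syndrome, and here the exposure had ended before birth.

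The liver turns surplus carbohydrate into fat. Citrate leaves the mitochondrion, is split into acetyl-CoA, carboxylated to malonyl-CoA and built into palmitate, with NADPH as the reductant. Elongases and desaturases then reshape the chain, and acyltransferases join fatty acids to glycerol to give triglyceride, which is stored in lipid droplets or exported. The transcription factors SREBP-1c (from Srebf1), ChREBP (Mlxipl) and LXR alpha (Nr1h3) drive most of these genes in response to insulin, glucose and sterols.

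No gene of fatty acid and triglyceride synthesis passed the test between ethanol and control livers. Of the 31 genes with a probe, 29 were bright enough to be tested, and 0 of them had an adjusted p under 0.05 in limma, which fits a linear model to every probe and adjusts over all 23829 tested probes. Over all tested genes the same rule called 4 of 12741, or 0.0314%, and over all tested probes 5, or 0.0210%. At an unadjusted p under 0.05 the pathway held 3 genes with higher values in ethanol livers (Elovl5, Elovl6 and Pklr) and 3 with lower values (Pparg, Pnpla3 and Elovl2), 10.3% of the 29 each way, where all genes had 4.22% higher and 4.91% lower. Without ethanol liver 3 these counts were 0 higher and 3 lower, without ethanol liver 1 they were 6 and 2, and over the 7 ways to leave out an animal they ran from 0 to 6 higher and from 1 to 3 lower. The smallest adjusted p in the pathway was that of Pparg, 0.166. Variances not moderated, or with a trend and robust moderation, also gave 0 calls, with 0 or 2 genes higher and 2 or 1 lower at an unadjusted p under 0.05. Without the normexp background step the counts were 0 higher and 1 lower, and with a smaller offset of 16 they were 1 and 2. Without quantile normalization, or without the filter on dim probes, they were 4 and 3, and with the replicate block 5 and 3.

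Values are the authors' deposited intensities, which reach below 0, and log2 fold changes are ethanol minus control on a normalized scale with an offset of 50, given with the standard error (SE). On that scale the median over the 29 genes was 0.071, against -0.0014 over all tested genes, with 19 genes positive and 10 negative. Of all tested genes 49.5% were positive. Leaving out ethanol liver 3 gave a median of 0.0076 with 15 positive and 14 negative, and leaving out ethanol liver 2 gave 0.12 with 22 positive. The 95% interval of the fold change stayed within 2-fold either way for 26 of the 29 genes (89.7%), against 98.5% of all genes. It reached past 2-fold for Lpin1, Pnpla3 and Acacb. Both shares depend in part on how dim the probes are, since the offset understates changes of dim probes. Of the 29 genes 25 were above background on all arrays, and of all 12741 tested genes 7646 were.

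**Figure D1:**
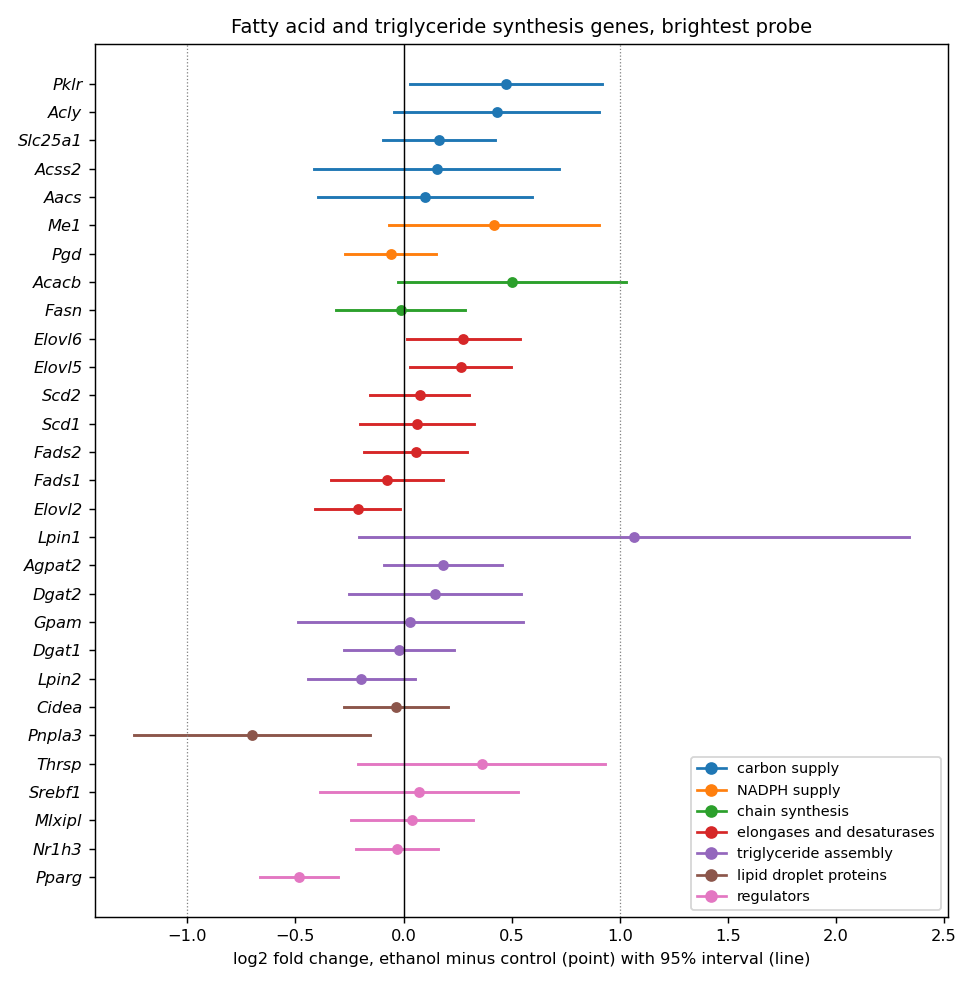
Log2 fold change (ethanol minus control) of the 29 tested genes of fatty acid and triglyceride synthesis, at the brightest probe and ordered by role. Points are estimates, lines are 95% intervals and dotted lines mark 2-fold. The interval of Lpin1, from -0.21 to 2.34, is the widest of the 29, and those of Pparg, Pnpla3, Elovl2, Elovl5, Elovl6 and Pklr leave out 0.

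The values of the 3 ethanol livers lay wholly outside those of the 4 control livers for 4 of the 29 genes. Pklr and Elovl5 were higher and Elovl2 and Pparg were lower, 6.90% each way, where 4.16% of all tested genes were higher without overlap and 4.80% lower. To show the sequence in front of these 4 genes, their RefSeq promoter windows (build GRCm38.p6, 250 bases before the annotated start to 50 after it, 5′ to 3′ on the strand of the gene) are printed here, for Elovl2 and Pparg the window farthest upstream and for Pklr both annotated starts. Capitals mark letters of an E-box, CCAAT box or GC box, on either strand.
Elovl5, chr9:77917115-77917414, plus strand: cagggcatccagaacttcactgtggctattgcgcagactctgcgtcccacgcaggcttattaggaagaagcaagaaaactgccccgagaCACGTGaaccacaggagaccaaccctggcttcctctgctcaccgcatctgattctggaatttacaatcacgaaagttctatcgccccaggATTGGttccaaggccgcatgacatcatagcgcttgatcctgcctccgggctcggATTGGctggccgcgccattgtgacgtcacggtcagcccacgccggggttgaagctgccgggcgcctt
Elovl2, chr13:41220354-41220653, minus strand: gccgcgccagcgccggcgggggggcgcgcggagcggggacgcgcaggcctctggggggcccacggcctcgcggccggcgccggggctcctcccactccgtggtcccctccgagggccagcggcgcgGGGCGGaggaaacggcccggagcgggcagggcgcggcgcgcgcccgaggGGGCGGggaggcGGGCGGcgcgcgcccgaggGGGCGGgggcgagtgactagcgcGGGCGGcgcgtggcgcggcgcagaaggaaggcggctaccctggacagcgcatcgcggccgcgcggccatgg
Pklr upstream start, chr3:89135892-89136191, plus strand: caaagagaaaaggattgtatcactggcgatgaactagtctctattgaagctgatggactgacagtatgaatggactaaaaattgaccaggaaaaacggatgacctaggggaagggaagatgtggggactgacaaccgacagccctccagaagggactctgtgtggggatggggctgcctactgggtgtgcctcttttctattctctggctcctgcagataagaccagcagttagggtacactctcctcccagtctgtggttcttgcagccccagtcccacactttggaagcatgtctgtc
Pklr downstream start, chr3:89136373-89136672, plus strand: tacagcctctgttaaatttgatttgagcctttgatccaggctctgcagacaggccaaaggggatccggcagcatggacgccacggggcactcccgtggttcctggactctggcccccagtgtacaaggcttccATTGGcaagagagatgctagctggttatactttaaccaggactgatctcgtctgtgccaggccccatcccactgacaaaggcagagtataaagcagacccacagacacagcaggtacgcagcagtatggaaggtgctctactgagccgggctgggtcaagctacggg
Pparg, chr6:115360894-115361193, plus strand: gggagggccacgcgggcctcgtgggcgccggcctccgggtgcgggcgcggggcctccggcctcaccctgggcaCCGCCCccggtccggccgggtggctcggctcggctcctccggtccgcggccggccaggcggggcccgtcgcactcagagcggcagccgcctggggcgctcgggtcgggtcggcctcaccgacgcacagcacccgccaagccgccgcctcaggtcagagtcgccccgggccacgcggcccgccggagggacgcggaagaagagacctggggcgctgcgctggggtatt

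The Elovl5 window holds an E-box at position -161 from the start and 2 CCAAT boxes read on the other strand. That of Elovl2 holds 5 GC boxes, the first at -124. The upstream Pklr window has no match to any motif searched, the downstream one has a CCAAT box on the other strand at -117, and the Pparg window has a GC box on the other strand at -177. Pklr is known to have separate starts in red cell precursors and in liver, and which of them the probes read was not analysed here. These matches describe the letters in each window and say nothing on whether a factor binds there. Only the exact patterns were searched, so inexact forms of a motif would be missed.

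Across the pathway, 26 of the 32 genes matched a window in the RefSeq table, 39 windows in all. The E-box (CACGTG), bound by ChREBP with its partner among others, was found before 4 of the 26 genes, Slc25a1, Elovl5, Lpin2 and Mlxipl (15.4%), against 8.09% of all 27025 genes in the table. A sterol regulatory element (TCACNCCAC), the type of site SREBP binds, was found before Mlxipl alone (3.85%, against 1.44% of all genes). The CCAAT box (CCAAT) was found before 17 genes (65.4%, against 41.1%) and the GC box (GGGCGG) before 15 (57.7%, against 38.2%). By window, the shares were 10.3% for the E-box, 2.56% for the sterol element, 48.7% for the CCAAT box and 46.2% for the GC box, against 7.15%, 1.24%, 37.4% and 35.7% of all 32851 windows. Motifs were searched on both strands. The carbohydrate response element, written as an exact pair of E-boxes 5 bases apart and so holding the E-box, was in no window of the whole table. Inexact pairs were not searched, so this count does not show that a window lacks the element. The nuclear receptor elements DR4 and DR1, written as exact AGGTCA repeats, were in no window of these genes, and in 0.0152% and 0.0396% of all windows.

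Carbon enters the pathway through citrate export, citrate cleavage and glycolysis, and all 5 tested genes of carbon supply had positive fold changes, none past the test. Pklr encodes the pyruvate kinase of liver and red cells, which ends glycolysis. It had intensities of 239, 277 and 352 in ethanol livers 1 to 3, against 95.9, 234, 232 and 222 in control livers 1 to 4. Every ethanol value lay above every control value, and the lowest ethanol value exceeded the highest control value by little. Control liver 1 stood far below the other 6 livers. Pklr had a log2 fold change of 0.47 ± 0.20 (95% interval 0.028 to 0.92, adjusted p 0.548 in limma), and without control liver 1 it was 0.26. Its next probe had 96.9, 110.5 and 171 in ethanol livers and 38.0, 127, 104 and 114 in control livers and overlapped between groups (log2 fold change 0.26), with control liver 1 again lowest. Of 4 listed erythroid cell markers, 2 had a probe, both above background on all arrays, with a summed intensity of 47215 to 54989 in ethanol livers and 37055 to 49646 in control livers. These sums were almost wholly the globin gene Hba-a1 (means 50859 in ethanol livers and 41945 in control livers). Alas2, the heme synthesis enzyme of red cell precursors, had 695, 1197 and 1515 in ethanol livers and 784, 697, 680.1 and 542 in control livers (log2 fold change 0.65 ± 0.21, adjusted p 0.465). The part of red cell precursors in the Pklr values was not tested.

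Acly encodes ATP citrate lyase, which makes cytosolic acetyl-CoA. Its intensities were 11494, 12774 and 16996 in ethanol livers 1 to 3, against 14099, 8409, 9889 and 7652 in control livers 1 to 4. Ethanol liver 3 was highest and control liver 1 next, so the groups overlapped through that control (log2 fold change 0.43 ± 0.22, adjusted p 0.610 in limma). Without ethanol liver 3 it was 0.26, and without control liver 1 it was 0.64. Slc25a1, the mitochondrial citrate carrier, had 1972, 2096 and 2514 in ethanol livers 1 to 3, against 2097, 1728, 2071 and 1889 in control livers 1 to 4. The groups overlapped at this probe (0.16 ± 0.12, adjusted p 0.737). Its next probe read 598, 676 and 804 in ethanol livers and 515, 471, 560.0 and 558 in control livers, with no overlap and a log2 fold change of 0.36 ± 0.11 (adjusted p 0.446). Ethanol liver 3 was highest of the 7 at both probes.

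Acss2, which makes acetyl-CoA from acetate, had a mean intensity of 11479.8 ± 2913 in ethanol livers and 10429 ± 3653 in control livers (SD, n = 3 and 4), with control liver 1 highest at 15739.7 (log2 fold change 0.15, 95% interval -0.41 to 0.72). Aacs, which activates acetoacetate for lipid synthesis, averaged 1894 ± 554 in ethanol livers and 1748 ± 373 in control livers (0.098, -0.40 to 0.59). Neither interval excluded 0. Without ethanol liver 3 the log2 fold change was -0.016 for Acss2 and -0.066 for Aacs, and Aacs also turned negative without ethanol liver 1 or control liver 2.

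NADPH for chain synthesis comes from malic enzyme and the pentose phosphate pathway. Me1, the cytosolic malic enzyme, had 491, 694 and 1113 in ethanol livers 1 to 3, against 413, 500.3, 676 and 547 in control livers 1 to 4. Ethanol liver 3 was the highest of the 7 by a wide margin, while ethanol liver 1 lay within the control values. The difference was 0.42 ± 0.22 on the log2 scale (95% interval -0.069 to 0.90, adjusted p 0.631 in limma), and 0.12 without ethanol liver 3. Pgd, the second dehydrogenase of the pentose phosphate pathway, was not above background on any array, so no fold change is given for it.

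Chain synthesis rests on the acetyl-CoA carboxylases and fatty acid synthase. Acacb, the carboxylase at the mitochondrial surface whose malonyl-CoA restrains fatty acid oxidation, had 1183, 1798 and 1833 in ethanol livers 1 to 3, against 1681, 1172, 981 and 721 in control livers 1 to 4. Ethanol livers 2 and 3 were highest, but control liver 1 lay above ethanol liver 1, so the groups overlapped. Its fold change was 0.50 ± 0.24 on the log2 scale (95% interval -0.025 to 1.03, adjusted p 0.590 in limma). Leaving out ethanol liver 1 gave 0.70, and leaving out control liver 4 gave 0.32. Fasn, the synthase itself, was dim at its only probe, with 37.2, 26.7 and 66.9 in ethanol livers and 39.8, 33.4, 66.5 and 39.6 in control livers, and above background in 2 of 3 ethanol livers and all 4 controls. Ethanol liver 3 and control liver 3 were nearly equal and highest, and the log2 fold change was -0.013 (95% interval -0.31 to 0.29). Acaca, the cytosolic carboxylase, was not above background on any array and was not tested. A dim probe here says little on the transcript, since the brightest probe of Fabp1, an abundant fatty acid-binding protein of liver, was not above background in any liver either.

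**Figure D2:**
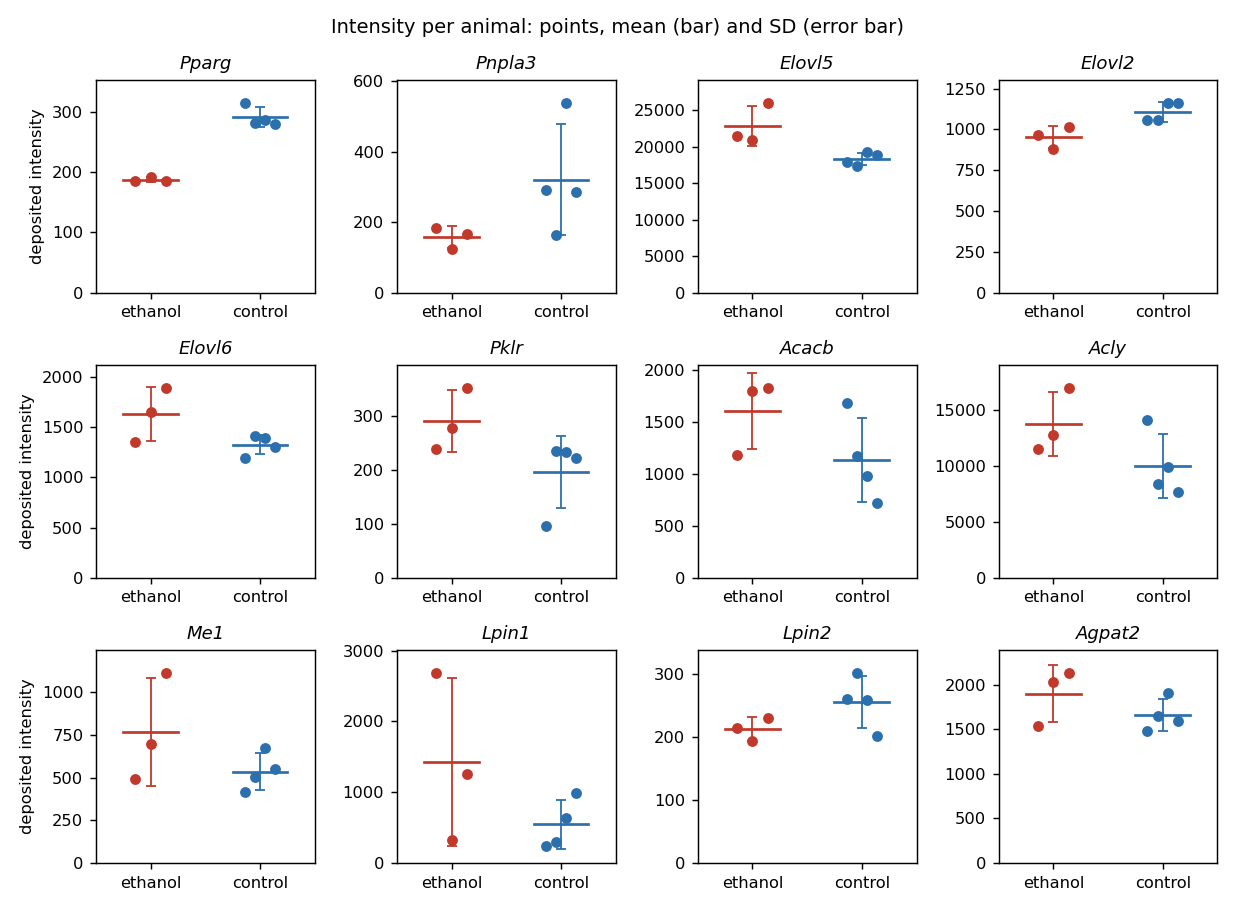
Deposited intensity (linear axis from 0) in each of 3 ethanol and 4 control livers for the 12 genes of fatty acid and triglyceride synthesis with the smallest unadjusted p. Points are animals, bars are group means and error bars are the SD. The groups do not overlap for Pparg, Elovl5, Elovl2 and Pklr, and a single animal stands apart in Pklr (control 1), Pnpla3 (control 3), Me1 (ethanol 3) and Lpin1 (ethanol 1).

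Elongases and desaturases set chain length and unsaturation. Elovl5, which elongates polyunsaturated fatty acids, had intensities of 21495, 20979.5 and 26042 in ethanol livers 1 to 3, against 17908, 17407, 19223 and 18789 in control livers 1 to 4. All ethanol livers lay above all controls, and ethanol liver 3 was highest. This gave a log2 fold change of 0.26 ± 0.11 (95% interval 0.030 to 0.50, adjusted p 0.533 in limma), and 0.16 without ethanol liver 3. Elovl6, which takes palmitate to stearate, had 1353, 1651 and 1892 in ethanol livers 1 to 3, against 1194, 1409, 1389 and 1306 in control livers 1 to 4. Ethanol livers 2 and 3 lay above every control, while ethanol liver 1 lay among them (0.28 ± 0.12, adjusted p 0.548, and 0.14 without ethanol liver 3). Elovl2, which lengthens the precursors of docosahexaenoic acid, went the other way, at 965, 878 and 1015 in ethanol livers 1 to 3, against 1055, 1057, 1164 and 1159.8 in control livers 1 to 4. All ethanol livers lay below all controls, by a small margin at the closest pair (-0.21 ± 0.089, 95% interval -0.41 to -0.018, adjusted p 0.542).

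For the 4 desaturases the intervals all included 0. Scd1, the main stearoyl-CoA desaturase of liver, averaged 32209 ± 2799 in ethanol livers and 28994 ± 3415 in control livers (SD, n = 3 and 4), with a log2 fold change of 0.063 and a 95% interval of -0.20 to 0.33. Fads1, the delta-5 desaturase, averaged 22468 ± 1052 in ethanol livers and 23038 ± 2351 in control livers (-0.078, -0.34 to 0.18), and Fads2, the delta-6 desaturase, 1813 ± 213 in ethanol livers and 1742 ± 205 in control livers (0.055, -0.18 to 0.29). These intervals exclude a 2-fold difference in either direction for each of these 3 genes. Scd2, a desaturase of brain and developing tissue, was above background in 2 ethanol and 2 control livers (0.074, -0.15 to 0.30).

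The widest interval of the 29 genes was in triglyceride assembly. Lpin1, a phosphatidate phosphatase that also acts as a coactivator of fatty acid oxidation genes, had intensities of 2687, 329 and 1253 in ethanol livers 1 to 3, against 244, 298, 640.2 and 993 in control livers 1 to 4. Ethanol livers 1 and 3 were highest, while ethanol liver 2 lay between the second and the third of the controls in rising order. The log2 difference was 1.07 ± 0.58 (95% interval -0.21 to 2.34, adjusted p 0.642 in limma), from 0.43 without ethanol liver 1 to 1.82 without ethanol liver 2. A separate Lpin1 probe read 1794, 239.7 and 1017 in ethanol livers and 192, 195, 454 and 810.0 in control livers, the same order of animals. Lpin2, of the same family, had 215, 194 and 231 in ethanol livers 1 to 3, against 261, 303, 259.6 and 203 in control livers 1 to 4 (log2 fold change -0.19 ± 0.11, adjusted p 0.661). The groups overlapped only through control liver 4, and another Lpin2 probe, dimmer and below background in 1 control, gave the opposite direction (0.36).

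Agpat2, which adds the acyl chain that forms phosphatidate, had 1535, 2037 and 2135 in ethanol livers 1 to 3, against 1485, 1655, 1905 and 1591 in control livers 1 to 4. Ethanol livers 2 and 3 were highest and ethanol liver 1 lay among the controls (0.18 ± 0.12, adjusted p 0.723 in limma). Dgat2 and Dgat1 catalyse the last step to triglyceride. Dgat2 averaged 7172 ± 1429 in ethanol livers and 6456 ± 1504 in control livers (SD, n = 3 and 4), with a log2 fold change of 0.14 and a 95% interval of -0.25 to 0.54, and Dgat1 averaged 71.3 ± 7.35 in ethanol livers and 75.5 ± 20.8 in control livers (-0.021, -0.28 to 0.23). Gpam, the mitochondrial glycerol phosphate acyltransferase that starts assembly, averaged 169 ± 73.0 in ethanol livers and 162 ± 64.0 in control livers (0.031, -0.49 to 0.55), with ethanol liver 1 lowest and control liver 1 highest. Mogat1, a monoacylglycerol acyltransferase, was not above background on any array and was not tested.

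Of the lipid droplet proteins, Pnpla3, a droplet-bound lipase homologue whose human counterpart carries a common risk allele for fatty liver, had 183, 122 and 166 in ethanol livers 1 to 3, against 289.9, 164, 539 and 285 in control livers 1 to 4. Control liver 2 lay among the ethanol livers, the other 3 controls above them, and control liver 3 was highest by far. Ethanol minus control, the log2 fold change was -0.70 ± 0.25 (95% interval -1.25 to -0.16, unadjusted p 0.0165, adjusted p 0.481 in limma), -0.46 without control liver 3 and -0.92 without control liver 2. Cidea, a droplet fusion protein of brown fat and fatty liver, was above background in 0 of 3 ethanol livers and 1 of 4 control livers, so no fold change is given.

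Among the regulators, Pparg, the nuclear receptor of fat storage, had 184, 191 and 185 in ethanol livers 1 to 3, against 315, 281, 287 and 279.8 in control livers 1 to 4. The 3 ethanol livers were nearly alike and every control lay well above them. The group means were 187 ± 3.78 in ethanol livers and 291 ± 16.4 in control livers (SD, n = 3 and 4). On the log2 scale the fold change was -0.48 ± 0.082 (95% interval -0.67 to -0.30), with an unadjusted p of 0.000118 and an adjusted p of 0.166 in limma, so it did not pass. Without 1 animal it stayed between -0.50 and -0.44. Of the other 2 Pparg probes, 1 was above background in control liver 1 alone and 1 on no array, so neither gives a further reading.

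Pparg is also made by fat cells, macrophages and resting stellate cells, and in whole liver fewer cells of a type cannot be told apart from less RNA per cell. Of 8 fat cell markers 7 had a probe, and 6 of these (Adipoq, Plin1, Lep, Retn, Fabp4 and Ucp1) were not above background on any array. The remaining marker, Lpl, the lipase that frees fatty acids from lipoproteins, had 7931, 7905 and 7090.1 in ethanol livers and 15346, 10136, 8967 and 10417 in control livers, lower in every ethanol liver than in any control (log2 fold change -0.54 ± 0.17, adjusted p 0.456 in limma). The summed fat cell markers thus ranged 7117 to 7951 in ethanol livers and 8976 to 15367 in control livers. These sums were almost wholly Lpl, so they give no reading of fat cell markers in general. Stellate cell markers, 7 of 7 above background on at least 1 array, had negative fold changes in all 7 (median -0.29) and sums of 6573 to 8199 in ethanol livers and 7869.7 to 9403 in control livers. Most of these sums was Dcn, with means of 5601 in ethanol livers and 6409 in control livers. The 7 log2 fold changes ran from -1.19 (Lrat) to -0.014 (Col1a1). Lrat was high only in control livers 1 and 2, at 366 and 379, against 45.2 and 60.3 in control livers 3 and 4. Macrophage markers, 8 of 9 above background and Cd5l not, had positive fold changes in all 8 (median 0.14) and sums of 4560.4 to 7766 in ethanol livers and 5126 to 5865 in control livers. Ethanol liver 3, however, lay below every control for Adgre1, Clec4f, Vsig4, C1qa and Lyz2, though not for Csf1r, Marco and Timd4. The part of these cells in the Pparg values was not tested.

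For the factors that drive lipogenic transcription the intervals included 0. Srebf1 averaged 248 ± 75.1 in ethanol livers and 234 ± 68.4 in control livers (SD, n = 3 and 4) with a log2 fold change of 0.071 and a 95% interval of -0.39 to 0.53. Mlxipl averaged 1596 ± 348 in ethanol livers and 1533 ± 88.0 in control livers (0.039, -0.24 to 0.32) and Nr1h3 1843 ± 145 in ethanol livers and 1883 ± 122 in control livers (-0.030, -0.22 to 0.16). Each interval excludes a 2-fold difference, and those of Mlxipl and Nr1h3 are the narrower. A further probe of Mlxipl gave 0.051 and a further probe of Nr1h3 0.0025. Which Srebf1 isoforms the probes read was not analysed here.

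Thrsp, or Spot 14, a small nuclear protein that follows lipogenesis, gave opposite readings at its probes. The brightest probe had 9469.7, 3975 and 6069 in ethanol livers 1 to 3, against 3678, 4029, 5555 and 5797 in control livers 1 to 4. Ethanol liver 1 was highest and ethanol liver 2 lay among the controls (log2 fold change 0.36 ± 0.26, adjusted p 0.737 in limma). The dimmer probe, also above background on every array, read 98.4, 60.1 and 136 in ethanol livers and 192, 290.1, 474 and 340.0 in control livers. There every ethanol liver lay below every control, with a log2 fold change of -1.19 ± 0.22, an unadjusted p of 0.000222 and an adjusted p of 0.211. It ranged from -1.37 to -1.02 without 1 animal. The dimmer probe is singled out because of the values it showed, and which transcript each probe reads was not analysed here.

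Elsewhere the probes of a gene mostly had the same sign. Of 9 genes with at least 2 probes above background on all arrays, the brightest and the next had the same sign in 7 (Acss2, Agpat2, Fads2, Lpin1, Mlxipl, Pklr and Slc25a1), and Nr1h3, near 0 at both, and Thrsp did not. Lpin2 was outside this count, since its next probe was below background in 1 control, and its probes differed in sign (-0.19 and 0.36). Of the 53 probes, 12 were not above background on any array.

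**Figure D3:**
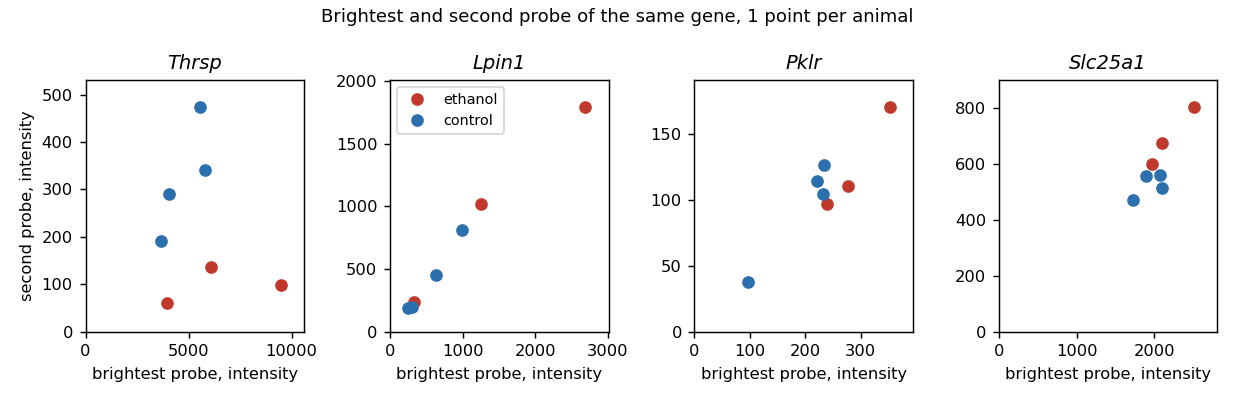
Intensity at the second-brightest probe (vertical) against the brightest (horizontal) of Thrsp, Lpin1, Pklr and Slc25a1, with 1 point per animal and both axes linear from 0. In Lpin1 the 2 probes order the animals alike, while in Thrsp the 3 ethanol livers lie below the 4 controls at the dimmer probe and among and above them at the brighter one.

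Values also differed between animals within each group. On the normalized scale ethanol liver 3 had the highest value of the 7 for 12 of the 29 genes (41.4%), against 17.4% of all tested genes, and ethanol liver 2 for 0, against 13.1%. Control liver 1 had the lowest value for 9 genes (31.0%, against 16.6% of all genes), and control liver 3 for 0, against 9.83%. The median difference from the control mean over the 29 genes was 0.049, -0.11 and 0.28 on the log2 scale in ethanol livers 1 to 3 and -0.0018, -0.085, 0.10 and -0.021 in control livers 1 to 4. Only ethanol liver 3 lay above the controls on this measure and ethanol liver 2 lay below all 4. Over all tested genes these medians were between -0.011 and 0.0083. They describe these animals, and no test was made of them.

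The standing of an animal differed from role to role. In ethanol liver 3 the median difference was 0.50 over the 5 carbon supply genes, 0.27 over the 6 tested triglyceride assembly genes, 0.14 over the 7 elongases and desaturases and -0.11 over the 5 regulators. It had the highest value for 4 of 5 carbon supply genes and for Me1, Acacb, Fasn, Elovl5 and Elovl6. Ethanol liver 1 was highest instead for Lpin1, Dgat2, Thrsp, Mlxipl and Fads2. Control liver 1 was high for Acly, Acss2, Acacb and Gpam and low for Pklr, Me1, Lpin1, Dgat2 and Thrsp, so high and low genes stood side by side in this animal.

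**Figure D4:**
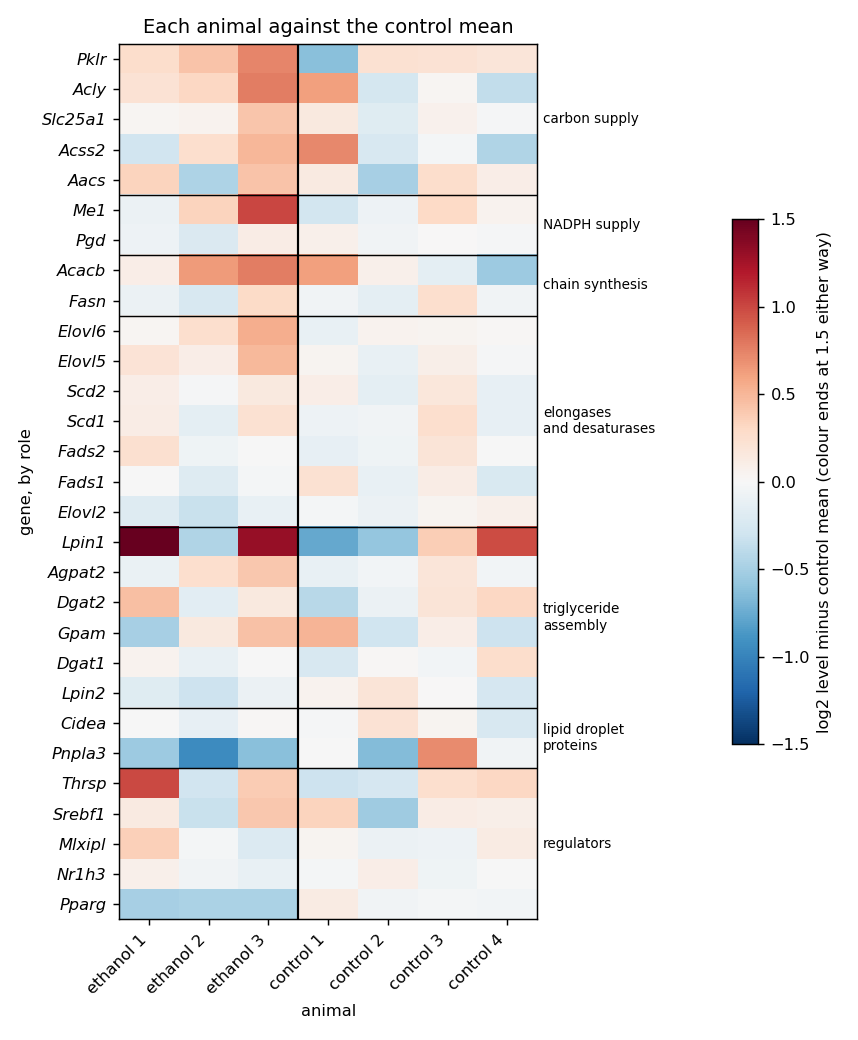
Difference of each liver from the control mean (log2, colour scale) for the 29 tested genes, grouped by role, with 3 ethanol livers left of the line and 4 control livers right of it. Ethanol 3 is high across carbon supply and chain synthesis, Lpin1 is high in ethanol 1 and 3 and low in control 1 and 2, and Pparg is low in all 3 ethanol livers.

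**Figure D5:**
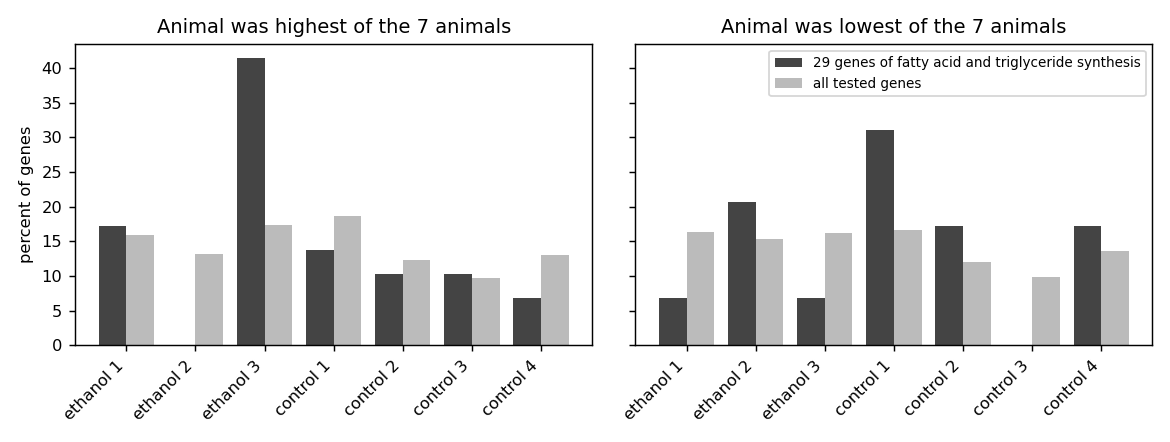
Percent of genes for which each animal had the highest (left) or the lowest (right) value of the 7, for the 29 genes of fatty acid and triglyceride synthesis (dark bars) and for all 12741 tested genes (light bars). Ethanol 3 was highest for 41.4% of the pathway's genes and control 1 lowest for 31.0%.

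A further 100 genes around the pathway were listed by function, of which 93 had a probe and 83 were tested. In limma 0 had higher and 1 had lower values past the test, where 4 of all 12741 tested genes (0.0314%) passed. At an unadjusted p under 0.05 there were 6 higher (7.23%) and 7 lower (8.43%), where all tested genes had 4.22% and 4.91%. Without overlap between groups 4 were higher and 4 lower (4.82% each), close to the 4.16% and 4.80% of all tested genes. The lists were chosen with earlier results of these data known, so a call within them is no support for the lists. The median log2 fold change over the 83 was 0.035. The gene past the test was Angptl8, a secreted protein made after feeding under insulin and the lipogenic factors, which restrains lipoprotein lipase. It fell, with 672, 1353 and 788 in ethanol livers 1 to 3, against 2538, 3081, 3722 and 4137 in control livers 1 to 4. No ethanol value reached the lowest control (log2 fold change -1.81 ± 0.21, adjusted p 0.0394). The call was lost without ethanol liver 3 (adjusted p 0.0881), without any single control (adjusted p 0.0752 to 0.181), without normexp, with only probes above background tested, and under both other treatments of the variance. Among the other 10 tested genes responsive to feeding or insulin, 0 past the test, the next by p was Akt2, an insulin signalling kinase above background in 2 ethanol livers and 0 controls. It had 35.0, 12.7 and 30.0 in ethanol livers 1 to 3, against 15.6, 16.2, 15.4 and 18.0 in control livers 1 to 4. Ethanol liver 2 lay below every control, so the groups overlapped (adjusted p 0.710 in limma), and no fold change is given.

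The regulators around SREBP had 0 of 12 past the test in either direction. Insig2, which holds SREBP in the endoplasmic reticulum, had 4849, 6293 and 6219.8 in ethanol livers and 3689, 5559, 4152 and 4340.3 in control livers (log2 fold change 0.37 ± 0.13, adjusted p 0.494 in limma), with control liver 2 among the ethanol values. Mbtps1, the first protease that cuts SREBP, had 133, 164 and 139 in ethanol livers and 117, 119, 107 and 118 in control livers (0.22 ± 0.083, adjusted p 0.523), without overlap. Of 11 other elongation and desaturation genes 0 passed. The nearest were Hacd3, a dehydratase of the elongation cycle, with 8817, 8066 and 8121 in ethanol livers and 9375, 10347, 10339 and 9804 in control livers (-0.30 ± 0.085, adjusted p 0.427), and Elovl1, which elongates saturated very long chains, with 1966, 1964 and 2270.2 in ethanol livers and 1523, 1706, 1767 and 1521 in control livers (0.33 ± 0.097, adjusted p 0.428). Neither overlapped between groups. Across Hacd3, Elovl1, Elovl2, Elovl5 and Elovl6 the fold changes thus lay on both sides of 0.

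Of 14 tested lipid droplet and lipolysis genes 0 passed. G0s2, the inhibitor of adipose triglyceride lipase, had 509, 1213 and 248 in ethanol livers and 1061, 2030.2, 1259.5 and 767 in control livers (log2 fold change -1.05 ± 0.40, adjusted p 0.510 in limma, and -0.58 without ethanol liver 3). Cideb, a droplet protein needed for lipoprotein lipidation, had 4602, 4620.3 and 4642 in ethanol livers and 3225, 3496, 4214 and 4279 in control livers (0.28 ± 0.11, adjusted p 0.517). The ethanol values of Cideb were nearly identical and above every control. Of 16 further carbon and NADPH supply genes 0 passed. Mlycd, which degrades malonyl-CoA, had 2018, 2037 and 1763 in ethanol livers and 2232, 2664, 2326 and 2311 in control livers (-0.29 ± 0.085, adjusted p 0.428), lower in every ethanol liver, and Acss1, the mitochondrial acetate enzyme, was above background in 1 ethanol liver and 3 controls (-0.26 ± 0.13, adjusted p 0.620).

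The acyl-CoA and uptake genes had 0 of 9 past the test. Smallest in p were Acot1, a thioesterase with close relatives in sequence, at 0.35 ± 0.22 (adjusted p 0.690 in limma), and Acsl3, an acyl-CoA synthetase, at -0.18 ± 0.26 (adjusted p 0.882). The other triglyceride assembly enzymes had 0 of 10 past the test. Smallest in p were Gpat2, a mitochondrial acyltransferase, at -0.14 ± 0.095 (adjusted p 0.729), and Lclat1, an acyltransferase of lysophospholipids that was not above background on any array.

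As a check of the tissue, 7 of 8 hepatocyte markers were above background, Tat being the exception, with sums of 152607 to 159374 in ethanol livers and 131154 to 155574 in control livers. The 3 exocrine pancreas markers with a probe were not above background on any array. Of the bile duct markers, Krt19 and Epcam were not above background on any array, and sums ran 262 to 519 in ethanol livers and 206 to 675 in control livers. Of the endothelial markers, Kdr was not, and sums ran 739 to 987 in ethanol livers and 848 to 968 in control livers. Array medians lay between 5.13 and 5.94, upper quartiles between 50.1 and 51.7, and each array had 13951 to 15068 probes over its background limit. With 3 and 4 arrays, precision is limited by their number.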

How the data were processed

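Liver RNA of 7 mice was measured on Illumina mouse BeadArrays with 1 array each. The authors deposited intensities for 45281 probes, which are the values used. GenomeStudio is named per the submitters' processing notes, and its version, background correction and normalization are not given in the sources used here. The deposited intensities reach below 0, as after a background subtraction, and their upper quartiles lie between 50.1 and 51.7. A further deposited table of 14 columns was not used, because its column names match no sample's labels.

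The intensities were put through normexp with an offset of 50, log2 and quantile normalization in limma 3.58.1 (R 4.3.3). The offset understates changes of dim probes. A probe whose value exceeded the median of its array at least 3 times was tested with lmFit and eBayes, two-sided, adjusted by Benjamini-Hochberg over 23829 probes at 0.05. A probe was above background where its intensity exceeded 3 times the root mean square of the array's negative values (limits 21.3 to 26.9). Probes were named from the platform annotation and updated through Entrez IDs with a RefSeq table of GRCm38.p6. Of all probes 34885 had 1 symbol, 18 had several and 10378 had none. The fit was tested on simulated data. Genes given in every animal by rule were those past the threshold and the 12 with the smallest p. Slc25a1, Fasn and Thrsp were added outside it after their values were seen. In each neighbouring list these were the genes past the threshold and the 2 with the smallest p. The genes and lists were chosen with earlier results of these data known. Alternatives covered background, offset, normalization, filter, variances, replicate block, probes per gene and each animal left out. Groups share replicate numbers, and deviations of same-numbered samples correlated at -0.19, 0.09 and 0.20. These correlations cannot show whether the numbers pair the samples, and the main fit took the samples as unpaired.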

Additional observations from a re-analysis of the deposited data

Results flagged for a closer look

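Control liver 1 stood apart from the other 3 controls in 2 genes of fatty acid and triglyceride synthesis, by Dixon's test at the 95% level for groups of 4 on normalized log2 values. In Pklr it was lowest, with an intensity of 95.9 against 234, 232 and 222 in the other controls, and the gap made up 0.945 of the range. In Pparg it was highest, with 315 against 281, 287 and 279.8, a gap of 0.897 of the range. Chance flags about 1 in 20 groups, and 42 genes or probes were looked at. Without control liver 1 the log2 fold change of Pklr was 0.26 and that of Pparg -0.44, and in neither case did limma call the gene.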

How the results depend on the processing

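No gene of fatty acid and triglyceride synthesis was called under any of the 16 alternatives run, and the median over the genes stayed positive, between 0.0076 and 0.13. The count over all probes, 5 in the main analysis, was 11 without normexp, 3 with an offset of 16, 8 without a filter on dim probes, 0 with the test limited to probes over the background limit, 1 with trended robust variances, 0 with variances not moderated and 24 with the replicate block, and from 0 to 27 with 1 animal left out (27 without ethanol liver 1, 2 without ethanol liver 2, 3 without ethanol liver 3, 1 without control liver 2, 0 without each other control). The cause was not tested. The replicate block, for numbers not known to pair the samples, also turned Gpam to -0.073 and Dgat1 to 0.066. The mean of all tested probes of a gene turned Lpin2 to 0.017 and Thrsp to -0.42. Of 362 values of 42 genes or probes under alternatives that keep all animals, 354 kept their direction and side of the threshold, 4 reversed as given here and 4, all of Angptl8, lost the call. With 1 animal left out, 22 of 294 values reversed, in genes with main log2 fold changes from -0.18 (Acsl3) to 0.15 (Acss2). The ranges were Aacs -0.070 to 0.38, Acsl3 -0.41 to 0.018, Acss2 -0.016 to 0.40, Dgat1 -0.10 to 0.066, Dgat2 -0.0075 to 0.29, Fads2 -0.034 to 0.12, Fasn -0.16 to 0.099, Gpam -0.17 to 0.29, Mlxipl -0.12 to 0.16, Nr1h3 -0.081 to 0.0076, Scd1 -0.019 to 0.17 and Srebf1 -0.11 to 0.27. Angptl8 ranged from -2.07 to -1.62 and lost its call in 5 of 7 such runs.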
